A study of Rattus norvegicus with 12 samples.

Results

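Neonatal rat ventricular myocytes (NRVMs), heart muscle cells in primary culture from newborn Sprague-Dawley rats, were compared between 2 states. Elsewhere in the study each state is set against cells with control siRNA and no PE. In the first, siNeg PE, the cells received a negative control siRNA and then 36 h of phenylephrine (PE), as the sample labels give it (the study's general culture methods state a longer exposure). In the second, siSlc39a2, they received an siRNA against Slc39a2 and no PE. These were 6 samples, 3 a group, of the 12 in the series, and the comparison covered the 13967 of 18483 genes with enough counts to be tested. The other 6 samples, siNeg without PE and siSlc39a2 with PE (siSlc39a2 PE), served as reference levels and shared the estimate of the spread. The 2 groups differ both in the siRNA and in PE, so a difference between them cannot be assigned to either one alone. Slc39a2 was targeted with a single siRNA sequence, so an effect of that siRNA and an effect of losing Slc39a2 cannot be told apart. The cultures came from ventricles by density separation, and other cardiac cells remained in them.

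PE is an agonist of the alpha1-adrenergic receptor, which acts through Gq, phospholipase C and protein kinase C. In cultured myocytes it is the classical stimulus of hypertrophy, an enlargement with renewed expression of fetal genes such as the natriuretic peptides and skeletal actin. Slc39a2 encodes ZIP2, a plasma membrane transporter that brings zinc into the cell. Interferon-stimulated genes form the antiviral programme of most cell types: sensors of foreign nucleic acid lead to type I interferon, which acts through its receptor and a complex of STAT2 and IRF9 on the interferon-stimulated response element (ISRE) of their promoters.

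The promoters of 8 genes from the groups that differed are shown because the sequence motifs of these programmes can be read in them. They are the 250 bases before the start of the gene in RefSeq on the GRCr8 build, a different build from that of the counts, written 5′ to 3′ on the strand of the gene with the motif in capitals. Of the genes tested, 10832 had a promoter matched by gene ID. The 4 promoters that follow, from genes higher in siSlc39a2, hold the ISRE core GAAANNGAAA on one of the strands (as TTTCNNTTTC when read on the other). They were from the IFIT family member Ifit3 (chr1:241527076-241527325, + strand), the transcription factor Irf7 (chr1:205800024-205800273, - strand), the antiviral enzyme viperin, Rsad2 (chr6:48788121-48788370, - strand), and the chemokine Cxcl10 (chr14:15988816-15989065, + strand). The match ended 34 bases before the start in Ifit3, 59 in Irf7, 137 in Rsad2 and 233 in Cxcl10.
Ifit3: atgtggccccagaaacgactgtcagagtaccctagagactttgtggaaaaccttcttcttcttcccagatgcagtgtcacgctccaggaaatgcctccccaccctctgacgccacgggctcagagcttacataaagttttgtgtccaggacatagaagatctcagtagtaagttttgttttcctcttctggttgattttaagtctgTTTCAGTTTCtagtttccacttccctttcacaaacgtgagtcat
Irf7: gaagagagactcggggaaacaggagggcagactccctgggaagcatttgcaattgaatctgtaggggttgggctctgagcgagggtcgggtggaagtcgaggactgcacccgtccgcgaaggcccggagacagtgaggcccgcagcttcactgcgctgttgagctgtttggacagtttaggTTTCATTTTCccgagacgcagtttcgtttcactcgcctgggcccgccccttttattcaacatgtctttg
Rsad2: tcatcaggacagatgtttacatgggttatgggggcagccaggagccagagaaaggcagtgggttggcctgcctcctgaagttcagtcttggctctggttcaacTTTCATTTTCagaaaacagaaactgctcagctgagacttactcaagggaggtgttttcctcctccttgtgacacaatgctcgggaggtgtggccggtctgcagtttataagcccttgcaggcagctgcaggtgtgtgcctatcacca
Cxcl10: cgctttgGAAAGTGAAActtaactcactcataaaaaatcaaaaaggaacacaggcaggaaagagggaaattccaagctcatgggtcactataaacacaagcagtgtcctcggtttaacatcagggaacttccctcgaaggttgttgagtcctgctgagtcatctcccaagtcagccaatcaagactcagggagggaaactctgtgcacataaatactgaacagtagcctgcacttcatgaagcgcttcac
The core, searched on both strands, was present in 2.90% of all promoters. It was present in 85 of the 489 promoters of genes higher in siSlc39a2 (17.4%) and in 14 of the 660 promoters of genes higher in siNeg PE (2.12%). Of the interferon-stimulated genes listed, 30 of 54 had it (55.6%), and of the MHC class I genes 8 of 23 (34.8%). These shares describe the letters in the window and not binding.

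From the genes higher in siNeg PE, 2 promoters of hypertrophy markers follow. The B-type natriuretic peptide gene Nppb (chr5:163699758-163700007, + strand) carries an M-CAT element, the TEAD site CATTCC, which reads GGAATG here because it lies on the other strand, and the skeletal actin gene Acta1 (chr19:68784195-68784444, - strand) carries a CArG box, the site of serum response factor. The elements ended 125 and 84 bases before the start. The M-CAT letters were present in 10.8% of all promoters, in 8 of 24 promoters of hypertrophy markers (33.3%) and in 7 of 24 of sarcomere genes (29.2%). Among all genes higher in siNeg PE its share was 11.1%, and among those higher in siSlc39a2 12.7%. The CArG box was present in 1.32% of all promoters and in 3 of 24 of each of those lists (12.5%), and in 2.42% of the promoters of all genes higher in siNeg PE.
Nppb: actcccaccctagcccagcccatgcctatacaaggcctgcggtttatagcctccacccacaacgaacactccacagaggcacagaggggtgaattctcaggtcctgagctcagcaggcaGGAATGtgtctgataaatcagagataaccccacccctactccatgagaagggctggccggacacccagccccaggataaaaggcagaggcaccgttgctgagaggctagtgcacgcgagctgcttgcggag
Acta1: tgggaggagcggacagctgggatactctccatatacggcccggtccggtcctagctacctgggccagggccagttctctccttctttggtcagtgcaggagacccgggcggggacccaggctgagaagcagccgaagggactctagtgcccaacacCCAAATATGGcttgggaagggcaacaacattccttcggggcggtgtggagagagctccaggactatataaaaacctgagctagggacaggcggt
The last 2 promoters, chosen after their values were seen, belong to steps of cholesterol synthesis, Hmgcs1 (chr2:53382054-53382303, + strand) and Fdps (chr2:176804817-176805066, - strand). Each carries 2 CCAAT boxes, in capitals as CCAAT or, on the other strand, ATTGG. The nearer box ended 128 bases before the start of Hmgcs1 and 80 bases before that of Fdps. CCAAT was present in 36.6% of all promoters, in 17 of 23 of the cholesterol genes (73.9%) and in 29 of 40 of the cell cycle genes (72.5%), as well as in 15 of 23 of the MHC class I genes (65.2%), a list higher in siSlc39a2. Among the 660 promoters of all genes higher in siNeg PE its share was 37.6%.
Hmgcs1: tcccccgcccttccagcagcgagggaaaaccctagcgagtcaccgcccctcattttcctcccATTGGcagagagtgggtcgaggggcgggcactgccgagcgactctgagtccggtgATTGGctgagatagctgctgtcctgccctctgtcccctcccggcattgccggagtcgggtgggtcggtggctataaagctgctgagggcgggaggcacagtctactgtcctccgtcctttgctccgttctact
Fdps: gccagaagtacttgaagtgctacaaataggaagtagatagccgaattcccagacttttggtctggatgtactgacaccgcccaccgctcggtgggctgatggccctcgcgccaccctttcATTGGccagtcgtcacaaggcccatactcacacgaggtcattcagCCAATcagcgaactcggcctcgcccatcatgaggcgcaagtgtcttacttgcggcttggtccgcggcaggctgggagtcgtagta

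Total counts were between 24065539 and 28436993 in the 6 samples. Slc39a2, the targeted gene, was checked first. Its counts were 95, 198 and 182 in siNeg PE and 21, 11 and 2 in siSlc39a2, against 50, 50 and 59 in siNeg and 31, 25 and 38 in siSlc39a2 PE. The siSlc39a2 samples were the lowest of the 4 groups and the siNeg PE samples the highest, with no overlap. The contrast thus sets the 2 extremes of this transcript against each other. The log2 fold change between them was 3.82 ± 0.44 (SE), with an edgeR adjusted p of 1.3e-05. These are RNA levels, and the study reported that PE left the amount of SLC39A2 protein unchanged. The transcript was scarce even at its highest, with a mean level of 5.71 ± 1.92 CPM (SD, n = 3) in siNeg PE, where CPM is the count scaled to the normalized library size.

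The cultures were cardiomyocytes by their markers, with other cells beside them. Cardiac troponin T, Tnnt2, was at 5786, 4865 and 5004 CPM in siNeg PE and 5247, 5276 and 5575 CPM in siSlc39a2, which overlap. The summed level of 10 cardiomyocyte markers was 45058 to 48640 CPM in siNeg PE and 37309 to 38701 CPM in siSlc39a2, and none of the 10 passed the threshold. Of 11 fibroblast markers, 5 were higher in siNeg PE and 1, the transcription factor Tcf21, was higher in siSlc39a2 (log2 fold change -1.002). Their summed level was 9220 to 11822 CPM in siNeg PE, 5394 to 5701 CPM in siSlc39a2 and 13911 to 18415 CPM in siNeg, and most of it was collagen I and III. The 5 markers that are not matrix genes were Fap (2.63, called in siNeg PE), Thy1 (0.75), Pdgfra (0.62), Ddr2 (0.04) and Tcf21. Endothelial markers summed to 197 to 235 CPM in siNeg PE and 110 to 113 CPM in siSlc39a2, and 1 of 8 (Eng, 1.09) passed. Their median log2 fold change was 0.44, and 3 of the 8 were below 0, Pecam1 (-0.93), Cdh5 (-0.13) and Kdr (-0.09). Smooth muscle and pericyte markers summed to 1750 to 2166 CPM against 1096 to 1173 CPM, with 2 of 9 higher in siNeg PE. Macrophage markers were at 45.2 to 59.0 CPM and 49.9 to 62.5 CPM in sum, overlapping, but single members differed. Of 11 tested, 2 were higher in siSlc39a2, Aif1 (-2.33) and Fcgr1a (-1.23), and 1 in siNeg PE, Mrc1 (1.52). The leukocyte marker Ptprc was near the detection limit in all 6 samples (0.147, 0.422 and 0.55 against 0.242, 0.339 and 0.546 CPM). Of the T and B lymphocyte markers 2 were tested, and Cd4, at 2.47, 2.95 and 2.53 against 1, 1.9 and 0.663 CPM, was higher in siNeg PE (1.14) while Cd8a was not called. In bulk RNA, fewer cells of a type and less RNA per cell cannot be told apart.

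**Figure D1:**
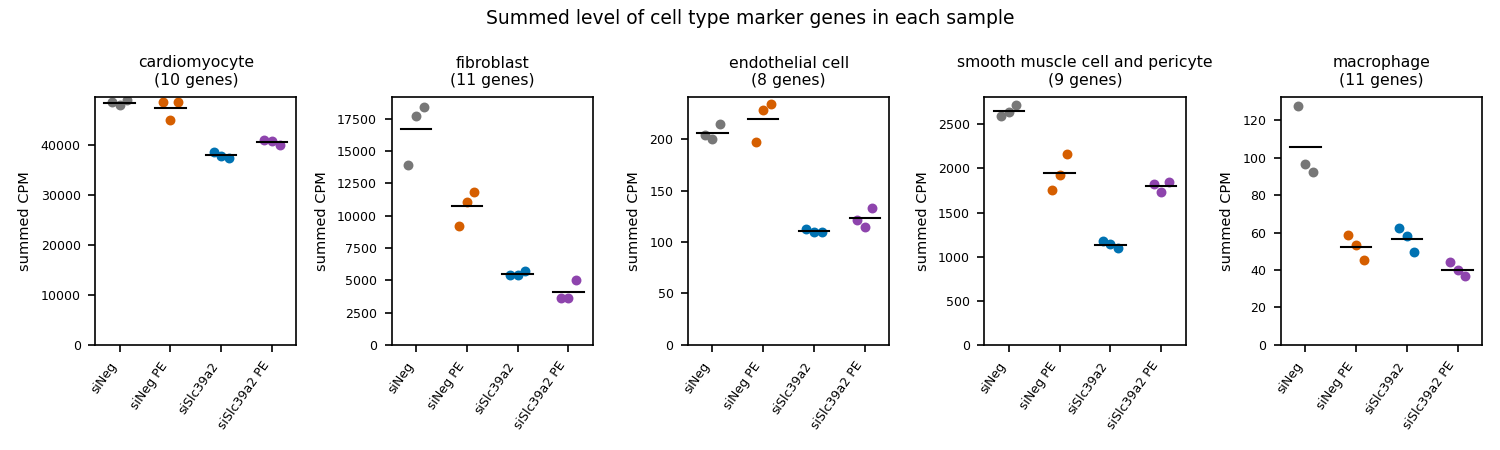
Summed CPM of cell type marker genes (y axis, linear, from 0) in each of the 12 samples by group (x axis), with a line at the group mean. Fibroblast markers were at 9220 to 11822 CPM in siNeg PE and 5394 to 5701 CPM in siSlc39a2. The sum of the macrophage markers overlapped between these groups.

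PE-treated control cells and Slc39a2 knockdown cells differed in 1597 genes (11.4% of those tested) when called at more than 1 unit of log2 in either direction with an edgeR adjusted p below 0.05. All differences below are siNeg PE minus siSlc39a2 on the log2 scale unless stated otherwise. Positive values are genes higher in siNeg PE than in siSlc39a2, whether or not PE raised them against siNeg. There were 911 genes higher in siNeg PE (6.52%) and 686 higher in siSlc39a2 (4.91%). At the adjusted p alone the counts were 3269 and 3083. The shares of 6.52% and 4.91% are the background for the numbers of called list members below. The median over all genes tested was 0.01, near 0 as the scaling of the libraries makes it. The 8 genes that led each side were taken at a mean log2 CPM above 1 and with no overlap of CPM between the groups. Their log2 differences were at least 3.67 on the siNeg PE side and from -7.25 to -8.92 on the siSlc39a2 side. For 5731 genes (41.0%) the 95% confidence interval of the log2 fold change lay within 0.5 of 0, which is the meaning of "alike" in what follows.

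**Figure D2:**
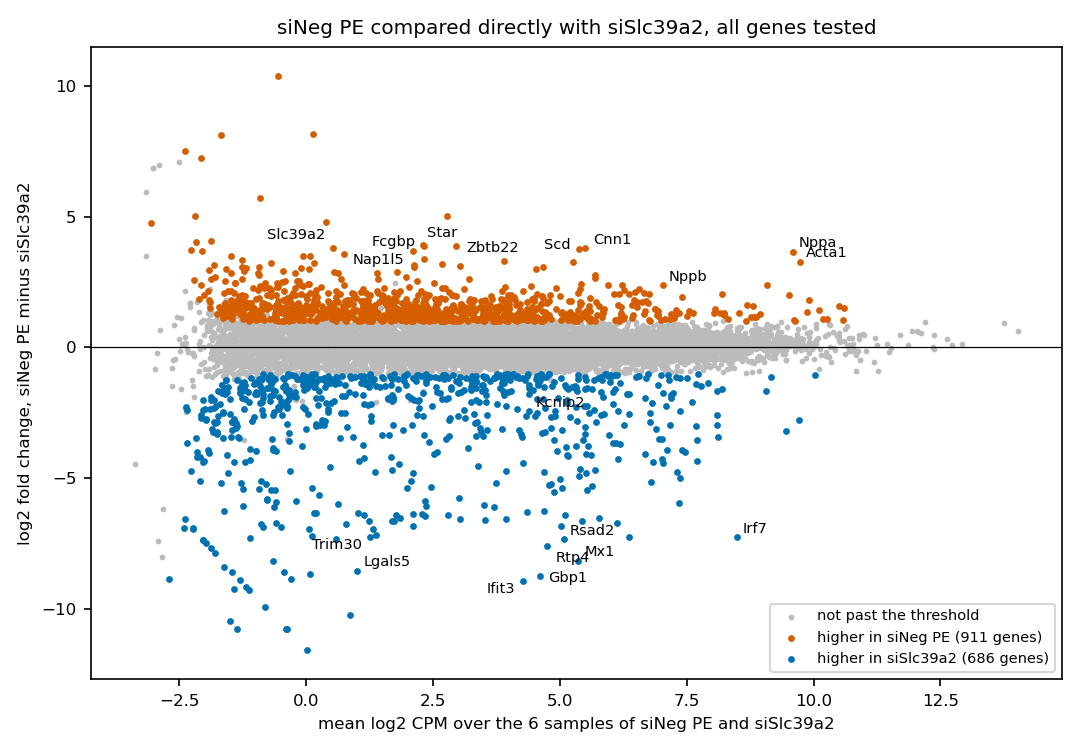
Log2 fold change of siNeg PE over siSlc39a2 (y axis) against the mean log2 CPM of the 6 samples (x axis) for each gene tested. Orange points are the 911 genes higher in siNeg PE, blue points the 686 higher in siSlc39a2 and grey points the rest, and the names are leading genes by the rule on expression level with a few others discussed in the text.

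The 8 leading genes on the PE side came from several programmes. Star, which carries cholesterol into mitochondria for steroid synthesis, was at 19.2, 17.7 and 20.3 CPM in siNeg PE and 0.726, 1.56 and 1.48 CPM in siSlc39a2. All 3 PE samples were above all 3 knockdown samples, by 3.92 ± 0.26 (SE). Cnn1, the actin-binding protein calponin of smooth muscle, was at 147, 166 and 187 against 12, 11.7 and 12.3 CPM (3.79 ± 0.09 (SE)). Star and Cnn1 had in common that their siNeg levels (7.53 and 27.9 CPM on average) lay between the PE level above and the knockdown level below. Fcgbp and Nap1l5 had the same order of groups, with log2 differences of 3.87 and 3.68. Zbtb22, a zinc finger gene, was different: siNeg and siNeg PE were at 35.8 and 29.7 CPM, and the level was 1.98 CPM in siSlc39a2 and 1.19 CPM in siSlc39a2 PE. Its counts are shared with other genes, so this value is uncertain.

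Of the 8 leading genes on the knockdown side, 6 were on the list of interferon-stimulated genes (Ifit3, Gbp1, Mx1, Rtp4, Rsad2 and Trim30), 1 was the interferon regulatory factor Irf7, and the other was Lgals5. Ifit3, which binds viral RNA together with IFIT1, was at 0.663, 0.703 and 1.21 CPM in siNeg PE and 424, 393 and 439 CPM in siSlc39a2. The knockdown level was 487-fold higher, and the edgeR adjusted p was 1.6e-12. Lgals5, a galectin, had 2, 3 and 1 counts in siNeg PE, at or under the 3 counts taken as the floor of detection, and 31.1, 30.7 and 23.4 CPM in siSlc39a2. Its counts and those of Mx1 are shared with other genes.

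The reference groups give each end of the contrast its place. Of the 911 genes higher in siNeg PE, the mean of siNeg cells without PE lay between the 2 groups for 598, above both for 192 and below both for 121. It was nearer to siNeg PE for 452 and nearer to siSlc39a2 for 459 (distances in log2 of CPM plus 0.5). Of the 686 genes higher in siSlc39a2, siNeg lay between for 437, below both for 195 and above both for 54, and was nearer to siNeg PE for 530 and nearer to siSlc39a2 for 156. The siSlc39a2 PE mean was nearer to siSlc39a2 for 463 of the 686 genes, and for 471 of the 911. These are orders of group means, given as a description with no test.

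**Figure D3:**
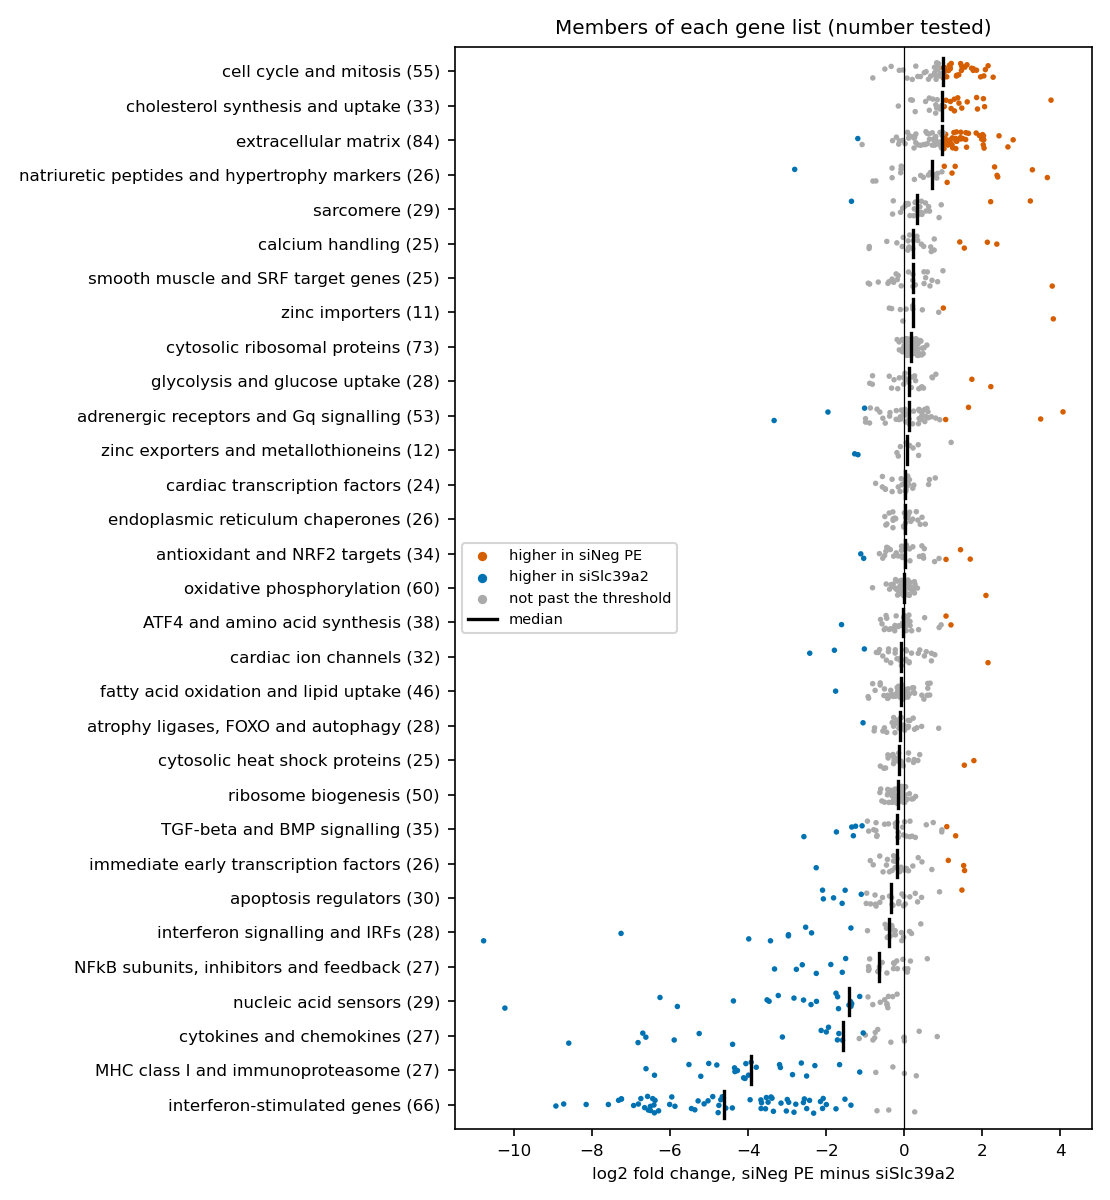
Log2 fold change of siNeg PE over siSlc39a2 (x axis) for each tested member of 31 gene lists (y axis, with the number tested), points spread vertically only for legibility and a black bar at each median. Interferon-stimulated genes had a median of -4.62, and the cell cycle, cholesterol and extracellular matrix lists had medians of 0.98, 0.97 and 0.96.

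PE is the hypertrophic stimulus, and hypertrophy markers were compared first. Of 26 listed markers tested, 9 were higher in siNeg PE and 1 in siSlc39a2, against backgrounds of 6.52% and 4.91%, and the median log2 fold change was 0.71 against 0.01 over all genes. Atrial natriuretic peptide, Nppa, was at 2064, 2973 and 3257 CPM in siNeg PE and at 202, 233 and 217 CPM in siSlc39a2. The lowest PE sample was still several fold above the highest knockdown sample, and the mean difference was 12.7-fold (3.67 ± 0.15 (SE), edgeR adjusted p = 4.5e-10). Nppb was at 234, 296 and 369 CPM against 57.8, 59.5 and 55.8 CPM, a 5.2-fold difference (2.38 ± 0.15 (SE)). Knockdown cells without PE were nevertheless above siNeg cells in Nppb, where siNeg was at 9.83, 6.86 and 8.04 CPM. The siSlc39a2 PE samples were the highest at 1623, 1527 and 1378 CPM. Nppa had the same order of groups, at 99.9, 114 and 120.5 CPM in siNeg and 5412, 5131 and 4821.5 CPM in siSlc39a2 PE. Its log2 difference of siSlc39a2 from siNeg, 0.96, was under the fold threshold. Acta1 was at 2271, 2830.1 and 2847 CPM after PE and 250, 284 and 283 CPM in siSlc39a2 (3.28 ± 0.10 (SE)), and here siNeg, at 731, 648 and 707 CPM, was above the knockdown. Acta1 shares counts with other genes, so its value is uncertain.

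The other 6 siNeg PE-high markers had log2 differences between 1.03 and 2.40. They were Fhl1, a LIM protein of the sarcomere that responds to load (988, 1268 and 1476 against 223, 241 and 245 CPM), the fast myosin-binding protein Mybpc2 (2.32), Uchl1 (1.31), the protease inhibitor Timp1 (1.23), the titin-binding stress protein Ankrd1 (1.10) and osteopontin, Spp1. These 6 genes were named after their values were seen. The marker higher in siSlc39a2 was Hamp, which encodes the iron hormone hepcidin, at 0.663, 1.09 and 0.917 CPM in siNeg PE and 6.4, 7.38 and 4.99 CPM in siSlc39a2 (-2.81 ± 0.24 (SE)). The beta-myosin heavy chain Myh7 did not reach the threshold of fold change: 21385, 19026 and 21673 CPM against 13811, 13250 and 13284 CPM, 0.62 ± 0.07 (SE) with an edgeR adjusted p of 7.8e-06, with counts that are shared with other genes.

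**Figure D4:**
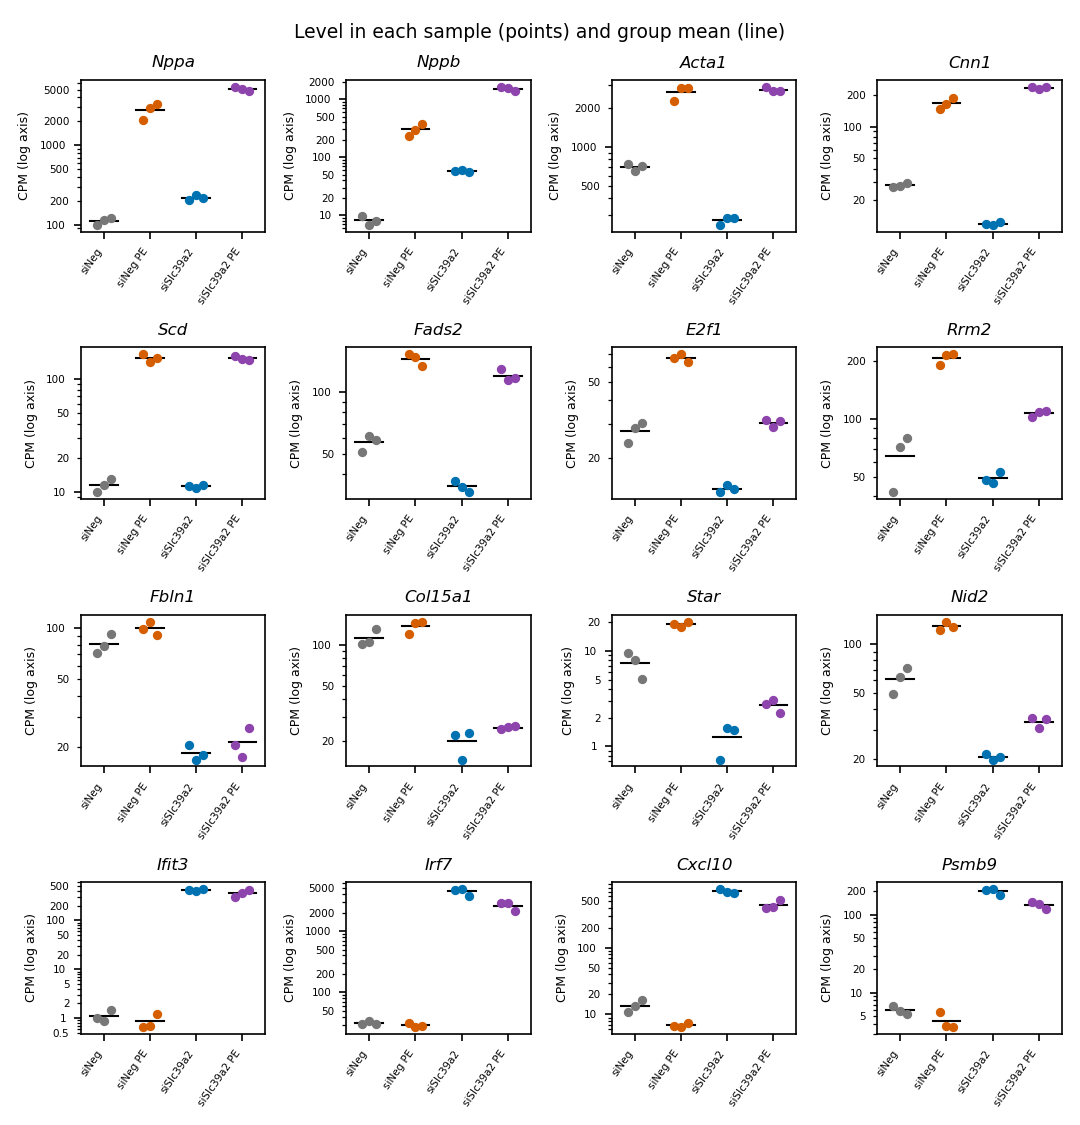
CPM on a log axis (y) in each of the 12 samples (points, coloured by group along x) with the group mean as a line, for 16 genes. In the interferon genes of the bottom row the siSlc39a2 and siSlc39a2 PE samples stand above both siNeg groups, and in Nppa, Acta1, Cnn1, Scd and Fads2 the 2 PE groups stand above both groups without PE.

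Other genes of the contractile apparatus differed in a few members. Of 29 sarcomere genes, 2 were higher in siNeg PE and 1 in siSlc39a2, shares near the backgrounds of 6.52% and 4.91%, with a median of 0.33. Myl4, the atrial and fetal essential light chain, was at 151, 177 and 167 CPM in siNeg PE and 34.8, 38.4 and 33.5 CPM in siSlc39a2 (2.21 ± 0.10 (SE)). Its siNeg level of 89.4 ± 10.9 CPM lay between them. Myl1, a skeletal light chain at a low level, had 37, 48 and 48 counts against 7, 2 and 5 and was named after its values were seen. Myom2, an M-band protein of the adult sarcomere, was the member higher in siSlc39a2, at 113, 119.5 and 118 CPM against 35.9, 48.6 and 53.2 CPM (-1.35 ± 0.16 (SE)). Cardiac actin, Actc1, was at 19821, 18440 and 19113 against 9803, 9989.9 and 9923 CPM, with a log2 difference of 0.95 under the threshold, and was chosen after its values were seen. Of 25 smooth muscle and SRF target genes Cnn1 alone passed, and the median was 0.22. Smooth muscle actin, Acta2, was at 0.99, just under the threshold.

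Calcium handling and ion channel genes mostly did not pass. Of 25 calcium genes 4 were higher in siNeg PE (16%, background 6.52%) and none in siSlc39a2 (median 0.23). Casq1, the skeletal calsequestrin that stores calcium, was at 148, 176 and 186 CPM after PE and 31.5, 32.4 and 34.7 CPM in siSlc39a2 (2.37 ± 0.08 (SE)), with shared counts. Camk2b, a subunit of the calcium and calmodulin-dependent kinase, was at 5.82, 6.65 and 8 against 1.59, 1.63 and 1.44 CPM (2.13 ± 0.15 (SE)). In Camk2b the PE samples overlapped with siNeg (8.06, 6.93 and 7.09 CPM), and the knockdown was the low group. The calcium pump Atp2b4 of the plasma membrane had a difference of 1.54 ± 0.17 (SE), and Fkbp1b, which stabilises the ryanodine receptor, one of 1.42. Phospholamban, Pln, the inhibitor of the reticulum calcium pump, was at 2133, 1704 and 1586 CPM against 3386, 3427 and 3302 CPM (-0.90 ± 0.12 (SE)). It was lower in siNeg PE but within the fold threshold. Of 32 ion channel genes 1 was higher in siNeg PE (3.1%) and 3 in siSlc39a2 (9.4%, background 4.91%), with a median of -0.08. Kcnip2, which forms the transient outward potassium current with Kv4 channels, was at 15.9, 10.9 and 3.12 CPM in siNeg PE and 54.9, 52.3 and 52.9 CPM in siSlc39a2 (-2.42 ± 0.39 (SE)), with siNeg higher than both at 197, 142 and 131 CPM. The 3 PE samples of Kcnip2 were widely spread, and its counts are shared. Gja5, the gap junction protein connexin 40, was at 52.6, 39.3 and 37.8 against 163, 153 and 132 CPM (-1.79 ± 0.14 (SE)). The channel gene higher in siNeg PE, Kcne1, had only 7, 12 and 13 counts against 1, 2 and 4, and was named after its values were seen.

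Of 33 genes of cholesterol and fatty acid synthesis tested, 15 passed the threshold in siNeg PE and none in siSlc39a2. At the adjusted p alone, 30 were higher in siNeg PE and none in siSlc39a2. The median was 0.97, and the list's summed level was 5746 to 6175 CPM in siNeg PE and 2721 to 2812 CPM in siSlc39a2. Against siNeg, whose 3 samples serve both comparisons, the median was 0.98 in siNeg PE and -0.04 in siSlc39a2. Scd, the desaturase that makes oleate, was at 165, 140.4 and 154 CPM in siNeg PE and 11.4, 10.8 and 11.6 CPM in siSlc39a2, a 13.6-fold difference (3.76 ± 0.10 (SE)), with shared counts. Its siNeg samples were at 10, 11.6 and 13.1 CPM, overlapping with the knockdown. Fads2, a desaturase of polyunsaturated fatty acids, was at 153, 149 and 134 against 37.2, 34.7 and 32.7 CPM (2.06 ± 0.09 (SE), edgeR adjusted p = 6e-10).

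The early enzymes of the pathway whose promoters are shown above moved in the same direction. HMG-CoA synthase, Hmgcs1, was at 271, 266 and 288 CPM in siNeg PE and 103, 113 and 143 CPM in siSlc39a2 (1.20 ± 0.12 (SE)). Farnesyl diphosphate synthase, Fdps, was at 851, 724 and 733 against 301, 320.3 and 325 CPM (1.29 ± 0.09 (SE), shared counts). The transcription factor Srebf2, which controls this pathway, differed by 0.28. Squalene synthase, Fdft1, was the member below 0 (-0.15). Hmgcs1, Fdps, Srebf2 and Fdft1 were chosen after their values were seen.

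Cell cycle genes were also higher in siNeg PE. Of 55, 27 passed in siNeg PE and none in siSlc39a2, with a median of 0.98. Against the shared siNeg samples the median was 0.82 in siNeg PE and -0.20 in siSlc39a2. E2f1, a transcription factor of the entry into S phase, was at 66.9, 69.8 and 63.8 CPM in siNeg PE and 13.2, 14.4 and 13.7 CPM in siSlc39a2 (2.28 ± 0.09 (SE)), with siNeg between at 27.6 ± 3.41 CPM. Rrm2, the ribonucleotide reductase subunit that supplies deoxynucleotides, was at 191, 216 and 217 against 48.2, 46.4 and 53.1 CPM (2.08 ± 0.17 (SE)). E2f8, a repressor late in S phase, was at 8.59, 10.6 and 10.7 against 2.28, 2.37 and 2.07 CPM (2.15 ± 0.20 (SE)). The proliferation marker Mki67 was at 34.3, 62.6 and 54 CPM after PE and 12, 12.2 and 14.7 CPM in siSlc39a2, with no overlap but with a wide spread among the PE samples, and topoisomerase Top2a differed by 2.04 ± 0.29 (SE). Cyclin D1, Ccnd1, was the member with the lowest value, -0.80, and did not pass the fold threshold. Mki67, Top2a and Ccnd1 were chosen after their values were seen. Fibroblasts in these cultures can divide. The sum of their markers, mostly collagen, was 9220 to 11822 CPM in siNeg PE and 5394 to 5701 CPM in siSlc39a2. It was highest in siNeg, at 13911 to 18415 CPM, where the cell cycle genes were lower than in siNeg PE by the median above. The part of fibroblasts in the cell cycle values was not tested.

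The list of extracellular matrix genes, the longest of those compared, also held many genes higher in siNeg PE. Of 84 tested, 39 were higher in siNeg PE and 1, the growth factor binding protein Igfbp3 (-1.19), was higher in siSlc39a2. The median was 0.96, and the summed level was 40727 to 47512 CPM in siNeg PE and 23940 to 24540 CPM in siSlc39a2. Against siNeg the median of the list was -0.30 in siNeg PE and -1.26 in siSlc39a2. The summed siNeg level was 47202 to 57342 CPM, so that in sum siNeg PE stood nearest to siNeg. Col15a1, a collagen of basement membranes, was at 120.1, 144 and 148 CPM in siNeg PE and 22.1, 14.6 and 22.9 CPM in siSlc39a2 (2.79 ± 0.16 (SE)). Nid2, which links laminin to collagen IV, was at 122, 137 and 128 against 21.3, 19.7 and 20.4 CPM (2.66 ± 0.12 (SE)). Both share counts with other genes. Fbln1, an elastic fibre protein, was at 98.8, 109 and 91 against 20.5, 16.9 and 18.1 CPM (2.43 ± 0.14 (SE)), and its siSlc39a2 PE samples were at 20.6, 17.6 and 26 CPM, overlapping with the knockdown alone.

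The fibrillar collagens moved less than these. Col1a1 was at 5694, 6944 and 7370.3 CPM in siNeg PE, 3296, 3316 and 3442 CPM in siSlc39a2 and 8990, 11364 and 11915 CPM in siNeg, with a log2 difference of 0.99 that missed the fold threshold. It was chosen after its values were seen. Matrix genes are made mainly by fibroblasts, and 4 of the 5 fibroblast markers that passed are matrix genes themselves (Col1a2, Lum, Dcn and Postn). The fifth, the protease Fap, had 23, 25 and 21 counts against 1, 6 and 4. The other fibroblast markers outside the matrix were Pdgfra (0.62), Thy1 (0.75), Ddr2 (0.04) and Tcf21 (-1.002). Whether the number of fibroblasts differed was not tested.

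Of 35 genes of the TGF-beta and BMP pathways, 27 did not pass (median -0.18). The others were 2 higher in siNeg PE (5.7%, background 6.52%) and 6 in siSlc39a2 (17.1%, background 4.91%). Without siSlc39a2 replicate 1 the counts were 4 and 4. The ligand Bmp2 was at 3.21, 3.9 and 3.01 CPM in siNeg PE and 12.4, 10.2 and 11.1 CPM in siSlc39a2 (-1.74 ± 0.12 (SE)). Chrd, a secreted BMP antagonist, was higher in siNeg PE at 4.31, 6.01 and 5.8 against 2.11, 1.73 and 2.65 CPM (1.32 ± 0.20 (SE)). Its siNeg samples, at 8.17, 9.09 and 9.06 CPM, were above both groups.

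The interferon response held the greatest differences of the comparison. Of 66 interferon-stimulated genes tested, 63 were higher in siSlc39a2 and none in siNeg PE, against a background of 4.91%, and the median log2 fold change was -4.62. Their summed level was 1489 to 1542 CPM in siNeg PE and 17847 to 18501 CPM in siSlc39a2. The siNeg samples, at 1354 to 1475 CPM, lay just under siNeg PE. Gbp1, an interferon-induced GTPase, was at 1.29, 1.16 and 0.991 CPM in siNeg PE and 481, 450.2 and 529.9 CPM in siSlc39a2, 425-fold higher (-8.72 ± 0.20 (SE)). Mx1, an antiviral GTPase, was at 1.69, 2.36 and 3.27 against 696, 654 and 729 CPM (-8.15 ± 0.17 (SE), shared counts). Rtp4 was at 1.69, 1.65 and 2.38 against 378, 369 and 350.2 CPM and Rsad2 at 2.69, 2.29 and 2.97 against 409, 376 and 483 CPM, 191-fold and 159.6-fold higher in the knockdown. Isg15, the ubiquitin-like modifier, was at 6.71, 7.18 and 6.16 against 1031, 1049.8 and 961 CPM and was chosen after its values were seen. The 3 members that did not pass were Slfn3 (-0.70), Ifitm2 (-0.40) and Ifitm1 (0.27).

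Some of these genes also had low counts in PE-treated cells. Trim30 had 0, 9 and 6 counts in siNeg PE and 785, 683 and 879 in siSlc39a2. Its level in siSlc39a2 PE, 26.1, 33.5 and 50 CPM, overlapped with that in siSlc39a2, 27.1, 23.1 and 34.3 CPM. In siSlc39a2 PE the summed level of the list was 14722 to 16708 CPM, below all siSlc39a2 samples and far above both siNeg groups.

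The interferon itself and its signalling chain were measured next to these targets. Ifnb1, the type I interferon gene, had 0, 0 and 0 counts in siNeg PE, 0, 0 and 0 in siNeg and 246, 242 and 189 in siSlc39a2. At 8.02 ± 0.587 CPM (SD, n = 3) it was at least 73.8-fold higher in siSlc39a2 than the floor of 3 counts a sample in siNeg PE, 0.109 CPM on average, and it was chosen after its values were seen. Of 28 interferon signalling genes and IRFs, 9 were higher in siSlc39a2 and none in siNeg PE (median -0.38, unchanged with Ifnb1 set at its bound). Irf7, which amplifies interferon production, was at 31.6, 27.5 and 28.2 CPM in siNeg PE and 4716, 4832 and 3772 CPM in siSlc39a2, 153-fold higher (edgeR adjusted p = 1.4e-12). Its siNeg samples, at 30.9, 34.3 and 31.1 CPM, overlapped with siNeg PE. Socs1, the feedback inhibitor of JAK kinases, was at 1.58, 1.69 and 1.14 against 24.8, 21.6 and 23.6 CPM (-3.98 ± 0.16 (SE)). Irf9, the DNA-binding partner of STAT2, differed by -2.37 ± 0.06 (SE) with shared counts, and Irf1 by -2.53 ± 0.10 (SE). Irf3, which is activated by phosphorylation and not by its own transcription, was at 27, 28.2 and 25.5 against 32.1, 30.3 and 32 CPM. Its log2 difference was -0.23, with a 95% interval of -0.38 to -0.07 and shared counts. The receptor subunit Ifnar1 was at -0.07, with an interval of -0.19 to 0.05, and the JAK kinases were under the threshold.

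Of 29 nucleic acid sensors and adaptors, 19 were higher in siSlc39a2 and none in siNeg PE (median -1.42). Dhx58, the RIG-I-like receptor LGP2, was at 3.13, 2.6 and 2.97 CPM in siNeg PE and 227, 224 and 215 CPM in siSlc39a2, 76.5-fold higher. RIG-I itself, Ddx58, was at 37.6, 37.2 and 39.8 against 430.4, 411 and 468 CPM (-3.51 ± 0.10 (SE)), and MDA5, Ifih1, at 7.15, 8.76 and 9.76 against 77.8, 73.1 and 89.6 CPM (-3.23 ± 0.24 (SE)). The adaptors downstream of these receptors differed less, with log2 differences of -0.44 for Mavs, -0.61 for Tmem173 (STING) and -0.40 for the kinase Tbk1. These 3 were chosen after their values were seen.

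MHC class I genes present peptides from inside the cell to T cells. Of 27 genes of this list, 23 were higher in siSlc39a2 and none in siNeg PE, with a median of -3.92. Psmb9, a catalytic subunit of the immunoproteasome, was at 5.75, 3.76 and 3.67 CPM in siNeg PE and 210.3, 214 and 178 CPM in siSlc39a2, 45.7-fold higher (-5.51 ± 0.16 (SE)). Psmb8, another such subunit, was at 3.8, 3.9 and 3.38 against 323, 332 and 280.2 CPM (-6.40 ± 0.13 (SE)). The class I gene RT1-T24-3 was at 1.11, 1.16 and 1.1 against 112, 121 and 98.9 CPM (-6.62 ± 0.15 (SE)). Psmb8 and RT1-T24-3 share counts with other genes, and class I genes are near copies of one another, so their single values are uncertain. The common light chain B2m, which has whole counts, was at 245, 230.2 and 221 against 2136, 2184 and 2056 CPM (-3.19 ± 0.09 (SE)), chosen after its values were seen. The 4 members not called were the peptidase Erap1 (-0.73) and the general reticulum chaperones Calr (-0.29), Pdia3 (0.00) and Canx (0.31).

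Chemokines and cytokines were higher in siSlc39a2 in 15 of 27 genes and in siNeg PE in none (median -1.58). Cxcl10, which attracts T cells, was at 6.67, 6.51 and 7.34 CPM in siNeg PE and 767, 686 and 677 CPM in siSlc39a2, 104-fold higher. Its siNeg samples at 10.8, 13.3 and 16.4 CPM were above siNeg PE. Ccl5 was at 0.405, 0.457 and 0.257 against 47.2, 47.1 and 33.9 CPM (-6.82 ± 0.23 (SE)), and Ccl4 at 0.405, 0.211 and 0.293 against 32.5, 28.3 and 29.5 CPM (-6.62 ± 0.17 (SE)). Il6, an inflammatory cytokine that the study's text names, had few counts, at 7, 9 and 2 in siNeg PE and 21, 8 and 12 in siSlc39a2. Its difference of -1.15 ± 0.52 (SE) did not pass (edgeR adjusted p = 0.082), and without siSlc39a2 replicate 2 it did (-1.45, adjusted p = 0.043). Tnf was called in siSlc39a2, but its CPM of 16, 0 and 12.8 in the 3 knockdown samples include 1 near 0, and its counts are shared. It was chosen after its values were seen.

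The NFκB list was led by feedback and adhesion genes. Of 27 genes 7 were higher in siSlc39a2 (25.9%, background 4.91%) and none in siNeg PE (median -0.64). Those named by rule were feedback genes and adhesion targets: the inhibitor Nfkbia at 21.5, 19.5 and 20.3 CPM in siNeg PE and 105, 92.1 and 95 CPM in siSlc39a2 (-2.25 ± 0.09 (SE)), the deubiquitinase Tnfaip3 at 8.25, 7.88 and 8.07 against 55.3, 49.1 and 43.5 CPM (-2.61 ± 0.10 (SE)), Birc3 (-2.76 ± 0.13 (SE)) and the adhesion molecule Vcam1 (-3.32 ± 0.15 (SE)), the last 2 with shared counts. The other 3 that passed were Icam1, Nfkbie and Ripk2. The subunits did not reach the fold threshold. Nfkb1 was at 65.7, 64.5 and 67 against 92, 84.2 and 91.8 CPM (-0.44 ± 0.06 (SE)), and Rela at 87.7, 82.9 and 81.4 against 113, 99.5 and 92.2 CPM (-0.27 ± 0.07 (SE), shared counts). Stat3, the transducer of IL-6 signals, was higher in siNeg PE by 0.43 ± 0.06 (SE), also within the threshold, with no overlap at 544, 521 and 522 against 418, 397 and 367 CPM.

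Of 30 regulators of cell death, 6 were higher in siSlc39a2 (20%, background 4.91%) and 1, Bok, in siNeg PE (3.3%, background 6.52%). The median was -0.35. The necroptosis effector Mlkl was at 5.16, 5.28 and 6.31 CPM in siNeg PE and 23.6, 23.4 and 24.4 CPM in siSlc39a2 (-2.09 ± 0.12 (SE)), and its kinase Ripk3 at 3.8, 4.54 and 5.43 against 19.4, 20.4 and 18.1 CPM (-2.07 ± 0.13 (SE)). Casp12 differed by -1.81 ± 0.24 (SE), and Gsdmd, Casp8 and Fas were the other 3. Mlkl is also counted among the interferon-stimulated genes. The intrinsic regulators Mcl1 (-0.14) and Bcl2l1 (-0.06), chosen after their values were seen, were near 0.

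The receptors and transducers through which PE acts differed in few members. Of 53 adrenergic and Gq genes 4 were higher in siNeg PE and 3 in siSlc39a2, shares near the background of 6.52% and 4.91%, with a median of 0.11. Rgs16, which switches off Gq and Gi, was at 0.995, 0.598 and 0.991 CPM in siNeg PE and 8.82, 9.35 and 7.91 CPM in siSlc39a2 (-3.33 ± 0.20 (SE)). Endothelin 1, Edn1, itself a hypertrophic ligand, was at 3.24, 3.27 and 3.67 against 14.1, 11.9 and 13.6 CPM (-1.95 ± 0.13 (SE)). Rgs3 lay at the threshold (-1.02 ± 0.09 (SE)) and was within it when siNeg PE replicate 1 or siSlc39a2 replicate 1 or 2 was left out (-0.997, -0.991 and -0.986). Among the 4 genes higher in siNeg PE were Prkcb (14, 25 and 17 counts against 0, 0 and 3), the endothelin receptor Ednrb (3.50) and Rgs5 (1.06). These were low genes, with a mean log2 CPM not above 1 over the 6 samples, and were named after their values were seen. The alpha1A receptor, Adra1a, differed by 0.44, and the transducer Gnaq by 0.02. Immediate early transcription factors were mixed, with 3 of 26 higher in siNeg PE and 1 in siSlc39a2. Egr2 was at 18.5, 18.3 and 19.3 against 7.64, 5.28 and 6.28 CPM (1.55 ± 0.13 (SE)), and the nuclear receptor Nr4a3 at 5.93, 5.94 and 5.06 against 2.01, 1.93 and 1.95 CPM (1.52 ± 0.16 (SE)). Atf3, a stress-induced factor, was the one higher in siSlc39a2, at 35.6, 34.9 and 29.7 against 7.59, 6.51 and 6.9 CPM (-2.25 ± 0.11 (SE), shared counts).

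Few zinc genes other than the target passed. Among 11 importers tested, Slc39a2 and Slc39a10 were higher in siNeg PE and none in siSlc39a2. Slc39a10 was at 28.6, 37.2 and 40.9 CPM in siNeg PE and 18.4, 16.4 and 18.6 CPM in siSlc39a2 and lay on the fold threshold (1.00 ± 0.17 (SE), shared counts), falling just inside it in 10 of the 14 other settings. Slc39a14 and Slc39a8, 2 importers known from heart, differed by -0.38 and 0.88, and were chosen after their values were seen. Of 12 exporters and metallothioneins, the zinc-binding metallothioneins Mt1 and Mt2A were higher in siSlc39a2. Mt1 was at 5.93, 4.92 and 2.97 against 10.8, 11.2 and 9.47 CPM (-1.18 ± 0.21 (SE)), -0.95 without siNeg PE replicate 3. Mt2A was at 7.26, 6.93 and 5.47 against 16.4, 15.7 and 15.3 CPM (-1.27 ± 0.21 (SE), shared counts). In the siNeg samples Mt1 was at 10.1, 8.34 and 6.86 CPM, which overlaps with the knockdown. The exporter Slc30a1, a target of zinc, differed by -0.10.

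A few stress and metabolic genes passed, with shares in the antioxidant, ATF4, glycolysis and heat shock lists near or below the backgrounds of 6.52% and 4.91%. Of 34 antioxidant genes, 3 were higher in siNeg PE, among them extracellular superoxide dismutase Sod3 (69.8, 78 and 81.6 against 24.3, 23.9 and 22.8 CPM, 1.69 ± 0.09 (SE)) and the quinone reductase Nqo1 (241, 257 and 269.6 against 88.5, 96.8 and 97.2 CPM, 1.44 ± 0.09 (SE)). Another 2 were higher in siSlc39a2, including heme oxygenase Hmox1 (-1.11 ± 0.11 (SE)). Of 38 genes of the ATF4 pathway the cystine transporter Slc7a11 (1.07 ± 0.19 (SE)) and Fgf21 (1.20, mean log2 CPM not above 1) were higher in siNeg PE. Ddit3, which encodes CHOP, was higher in siSlc39a2 (-1.61 ± 0.11 (SE), shared counts). The difference of Slc7a11 was 0.95 without siNeg PE replicate 3 and 0.99 without siSlc39a2 replicate 2. In glycolysis the lactate exporter Slc16a3 (208, 204 and 201 against 43.5, 44.5 and 43.6 CPM, 2.22 ± 0.08 (SE), shared counts) and the muscle enolase Eno3 (1.73 ± 0.07 (SE)) were higher in siNeg PE, 2 of 28. Of 25 heat shock proteins 2 were higher in siNeg PE, Hspa4l (1.54 ± 0.25 (SE), shared counts) and Hspa1l (1.78, mean log2 CPM not above 1). Of 28 atrophy and autophagy genes the ubiquitin ligase Trim63 was higher in siSlc39a2 (-1.05 ± 0.08 (SE)). In fatty acid oxidation 1 of 46 passed, the mitochondrial uncoupler Ucp3, at 4.68, 1.58 and 2.16 against 7.67, 9.11 and 11.7 CPM (-1.76 ± 0.33 (SE)).

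In several lists no member or 1 member passed the threshold. Of 60 genes of oxidative phosphorylation, 54 were alike and 1 passed, the muscle isoform Cox7a1 (2.09, shared counts, mean log2 CPM not above 1). The median was -0.0034, although each group was below siNeg by a median of -0.35 (siNeg PE) and -0.35 (siSlc39a2). Fatty acid oxidation genes had a median of -0.09, with 23 of 46 alike, and medians against siNeg of -0.48 and -0.46. The 3 siNeg samples are shared by each such pair of values, so chance in them moves both the same way. Of 73 cytosolic ribosomal proteins 54 were alike and none passed, and 34 of 50 ribosome biogenesis genes were alike with none passing. At the adjusted p alone, 25 of the ribosomal proteins were higher in siNeg PE and 20 of the biogenesis genes in siSlc39a2. None of 26 reticulum chaperones passed, nor any of 24 cardiac transcription factors, of which 14 were alike. Gata4, a factor of cardiac gene expression, was at 414, 433 and 430.1 CPM in siNeg PE and 445, 438 and 389 CPM in siSlc39a2, with an interval of -0.14 to 0.15 on the log2 scale. The calcium pump Atp2a2 had an interval of -0.06 to 0.29. Both were chosen after their values were seen.

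Single genes were also found that differed from siNeg in both states and were alike between them. With a mean log2 CPM above 1, 10 such genes were higher than siNeg and 13 lower, and the 5 with the largest changes on each side were taken by rule, so their differences from siNeg are a description. Crym, a thyroid hormone-binding protein, was at 2.45, 2.31 and 2.52 CPM in siNeg, 6.78, 5.59 and 6.93 CPM in siNeg PE and 7.36, 7.72 and 7.29 CPM in siSlc39a2. In siSlc39a2 PE it was higher again, at 17.9, 18.5 and 16 CPM. Nfkbiz, an atypical IκB protein, was at 3.39, 3.59 and 3.6 CPM in siNeg PE and 3.49, 2.44 and 4.56 CPM in siSlc39a2, with an interval of -0.44 to 0.48 for the log2 difference and 1.66, 1.4 and 1.18 CPM in siNeg. Hsd11b1, which regenerates active glucocorticoid, was at 17, 12.6 and 14.1 against 14.3, 14.6 and 12.9 CPM, with siNeg at 7.07, 7.09 and 5.79 CPM. Ehbp1 and Gipc3 completed the higher group, with differences between the 2 states of -0.00 and -0.10 (Gipc3 with shared counts).

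The lower group included Cdh3, the adhesion molecule P-cadherin, which was at 37.4, 42.9 and 48.5 CPM in siNeg, 10.6, 12.1 and 16.9 CPM in siNeg PE and 11.8, 15.5 and 13.8 CPM in siSlc39a2, and at 8.84, 8.66 and 11.5 CPM in siSlc39a2 PE. The 95% interval of its log2 difference between the 2 states was -0.43 to 0.32. Inhbb, a subunit of activins and inhibins, was at 8.92, 9.06 and 9.22 CPM in siNeg, 2.73, 2.6 and 3.89 CPM in siNeg PE, 3.22, 3.32 and 2.61 CPM in siSlc39a2 and 1.72, 1.86 and 2.84 CPM in siSlc39a2 PE. Ddn had a difference of -0.08 between the states. The mean of siSlc39a2 PE was below both single states for all 5 of the lower genes and above both for all 5 of the higher genes.

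**Figure D5:**
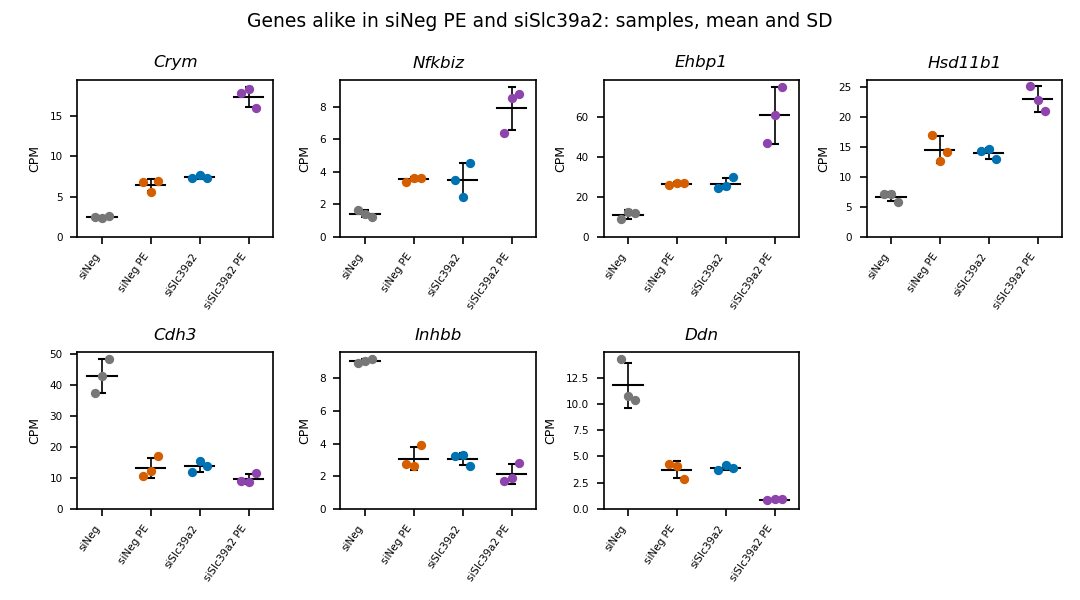
CPM (y axis, linear, from 0) in each sample (points) with the group mean and SD (bars, n = 3) for 7 genes. They are from the 10 taken by rule among genes alike in siNeg PE and siSlc39a2 and different from siNeg. The top row is higher and the bottom row lower than siNeg in both, and the siSlc39a2 PE means lie further out. The siSlc39a2 PE samples overlap with the single states in Cdh3 and Inhbb and not in Crym, Nfkbiz, Ehbp1, Hsd11b1 and Ddn.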

How the data were processed

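RNA of NRVMs was sequenced in 4 groups of 3 samples, which the study's methods call independent biological replicates, and groups were taken from the sample titles. For 18483 genes the authors deposited expected counts, which are not normalized, and FPKM, which are scaled by gene length and library size. The submitters' processing notes name HISAT, Bowtie2 and the build Rnor_6.0, with no versions. The counting program and the annotation are not given in the sources used here. Of the genes, 70.0% had whole counts in every sample, and values of the others are called shared and uncertain, since reads can be split between near copies. Total counts were between 24065539 and 28603854 in the 12 samples, and no gene took more than 2.8% of a sample. A floor of 3 counts, which covers counting error only, was 0.106 to 0.111 CPM in siNeg PE.

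Expected counts were rounded and filtered with filterByExpr in edgeR 4.0.16 (under R 4.3.3), library sizes were scaled by TMM, and 1 model of 4 groups (8 residual degrees of freedom) was fitted. siNeg PE and siSlc39a2 were compared by edgeR's two-sided quasi-likelihood test, and p-values were adjusted by Benjamini-Hochberg over the 13967 genes. The SE is the log2 fold change over the square root of F, and log2 CPM used a prior count of 2. The methods of the study name normalizeBetweenArrays and limma and the same threshold (absolute log2 fold change above 1, adjusted p below 0.05). That approach, in limma 3.58.1 on deposited FPKM and on counts, DESeq2 1.42.0 and the other settings were run as alternatives. No sample was a copy of another of its group, since pairs gave a chi-square of 4.77 to 22.7 for each degree of freedom over genes. The labels give no batch.

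The 31 gene lists, the 6 marker lists and the members were chosen with earlier results of these data known, so that list counts are a description beside the background, and no list was given a test or a p adjusted over the list alone. Of 1142 listed symbols outside the marker lists, 37 were left out by the filter and 12 were not matched. Named genes were the 8 with the largest differences in each direction (called, mean log2 CPM above 1, no overlap), the 3 largest called members of each list at that level, those the study's text names, and the 5 largest on each side among alike genes. Some genes that this rule picked are not reported here. All other genes named were chosen after their values were seen, either as examples or to complete a count of called members.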

Additional observations from a re-analysis of the deposited data

How the results depend on the processing

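With the replicate number as a block (replicate block), 907 genes were higher in siNeg PE and 696 in siSlc39a2, against 911 and 686 without it, and the block moved no other call of a named gene than that of Slc39a10 (0.98). The labels number the replicates in each group, but same-numbered samples did not deviate together (correlations of -0.0025, -0.035 and 0.11), and not every sample correlated best with its own number. DESeq2 gave 859 and 686, RLE size factors 887 and 701, no filter on low counts 931 and 803, a fit on the 2 groups alone 860 and 695, limma on log2 of FPKM plus 0.1 gave 723 and 614, and limma on log2 of counts plus 1 gave 884 and 683. The counts depended on the pseudocount: limma on log2 of FPKM plus 1 gave 322 and 364, of which 311 and 362 were among the genes of the edgeR fit. That scale understates changes of low genes by its construction. Without the limit on fold change, the adjusted p alone gave 3269 and 3083. Leaving out each of the 6 samples in turn gave 824 to 1004 genes higher in siNeg PE and 664 to 723 higher in siSlc39a2, the highest of the first without siNeg PE replicate 1. Of the calls, 692 and 577 were made in all 6 of these fits. Over 94 named genes and all settings, 1281 of 1315 values were classed as unchanged, 31 fell within the threshold, and none was classed as reversed. For most genes, unchanged meant the same direction and side of the threshold. For the genes taken as alike it meant a shift smaller than the SD implied by the SE. Their direction was not checked, and 2 of their values moved by more. Il6 was called only without siSlc39a2 replicate 2. The number of called members moved by more than 1.5 times in several lists with few calls, among them the Gq list (0 to 5 higher in siNeg PE, 2 to 6 in siSlc39a2). Lists with many calls moved as well, with 20 to 31 cell cycle genes and 35 to 46 matrix genes higher in siNeg PE. For nucleic acid sensors higher in siSlc39a2 the range was 13 to 20. The steadiest long lists were interferon-stimulated genes, with 62 to 64 called, and cholesterol genes, with 15 to 18. Depth limits genes such as Il6 and Prkcb, with few counts in a sample.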
